A study of Mus musculus with 24 samples.

Results

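Small nucleolar RNAs (snoRNAs) and small Cajal body RNAs were followed across 24 single-colour expression arrays of mouse muscle cells. The set held every gene with a transcript cluster (the probes an array assigns to 1 locus) of exactly 1 symbol that begins with Snora, Snord or Scarna, which gave 78 of the 22180 genes tested. They comprised 26 box H/ACA RNAs (Snora), 47 box C/D RNAs (Snord) and 5 Cajal body RNAs (Scarna). The names stand for structural classes, and members entered by name alone. The set itself was chosen with earlier results of these data known. Another 46 clusters carried a symbol of these families together with another symbol and stayed out of the set, among them the only clusters of 30 family symbols.

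The cells were isolated from the quadriceps of mice of the ICR strain, kept as primary cultures and then differentiated. There were 4 groups of 6 arrays: offspring of undernourished dams in limited medium, offspring of undernourished dams in standard medium, control offspring in limited medium, and control offspring in standard medium. Undernourished dams were fed 50% of the control ration from day 12.5 of pregnancy until delivery, and all litters were then equalized to 8 pups. The standard medium held 5.5 mM glucose and 2% serum. The limited medium was given overnight, with 0.5 mM glucose, 1 mM glutamine and 1% serum, and with carnitine added at 0.5 mM. Each culture number (1, 4, 8, 9, 12 and 20 for undernourished, 5, 10, 11, 15, 16 and 24 for control) occurs once in each medium. The labels do not say whether a number is an animal, a litter or a flask, nor give the sex or the age at isolation, so a p-value here reflects the variation among these samples, some of it perhaps technical. The design asks how maternal undernutrition changes the expression of these cells and their response to a shortage of substrate.

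SnoRNAs are short, stable RNAs of the nucleolus that guide chemical marks onto ribosomal RNA. Box C/D RNAs direct ribose methylation and box H/ACA RNAs direct the conversion of uridine to pseudouridine, each within a particle of core proteins, while Cajal body RNAs guide the same marks onto the RNAs of the spliceosome. Most mammalian members are cut from introns of host genes after splicing, so that a host transcript and the snoRNA inside it can differ in stability and in level. A few members act in the cleavage of the ribosomal precursor in place of modification, and in muscle the supply of ribosomes sets a limit on protein synthesis and growth.

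The arrays carried the signal of differentiated muscle. The median log2 signal over 15 myotube genes averaged 11.83 ± 0.25 in undernourished limited, 11.72 ± 0.22 in undernourished standard, 11.91 ± 0.18 in control limited and 11.79 ± 0.16 in control standard arrays (SD, n = 6 each). Satellite cell and myoblast genes were also bright. The median over 8 of them averaged 10.30 ± 0.17 in undernourished limited and 10.35 ± 0.27 in undernourished standard arrays. In control arrays it averaged 10.34 ± 0.11 in limited and 10.49 ± 0.18 in standard medium. How far the cells had differentiated was not tested. Medians over endothelial, leukocyte and adipocyte markers averaged between 4.54 and 5.46 in every group, under the median of all genes at 6.02. Schwann cell markers reached 8.14 on the limited and 7.59 on the standard array of undernourished culture 20, and fibroblast markers reached 9.07 on the limited and 7.33 on the standard array of control culture 16. The part of those cells in the results was not tested, and the counts without both cultures stand beside the main count. In such bulk samples fewer cells of a type and less RNA per cell cannot be told apart.

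Most members were bright. Levels are given on the log2 scale as the mean over all 24 arrays, and levels of different genes come from different probes and are set side by side only to show the range. Of the 78, 68 lay at or above the gene median of 6.02 and 10 lay below it (3 Snora, 6 Snord and 1 Scarna). The brightest was Snora33 at 12.98, and the dimmest was Snord85 at 4.45. Median levels were 7.87 for Snora, 8.71 for Snord and 8.65 for Scarna. The highest Snora signals after Snora33 were those of Snora34 (11.07), Snora23 (10.69), Snora21 (10.20) and Snora16a (9.40). The highest Snord signals were those of Snord22 (11.77), Snord99 (11.67), Snord82 (11.37), Snord47 and Snord55 (both 11.03). The dim end held Snora19 (5.10), Snora20 (5.42) and Snora35 (5.92) among Snora and Snord91a (4.81) and Snord90 (5.08) next to Snord85 among Snord. Of 3 members with 2 clusters, Snora19 had the same values in both, Snora33 had a second cluster at 6.81 and Scarna17 a second cluster at 8.43. The brighter cluster was used.

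Box C/D RNAs had their highest level in control cells in limited medium and their lowest in undernourished cells in standard medium. The median over the 47 Snord was 8.10, 8.70 and 9.31 (lowest, median and highest of 6 arrays) in undernourished limited cells and 7.68, 8.21 and 9.52 in undernourished standard cells. It was 8.90, 9.31 and 9.59 in control limited cells and 7.93, 8.80 and 9.33 in control standard cells. All 4 groups overlapped. The highest undernourished standard array, that of culture 9, lay above every undernourished limited array, while the next highest of its own group read 8.31. The spread within a group was smallest in control limited cells, with an SD of 0.28, against 0.54, 0.66 and 0.55 in undernourished limited, undernourished standard and control standard cells.

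Box H/ACA RNAs moved the same way over a smaller range. The median over the 26 Snora averaged 7.67 ± 0.38 in undernourished limited, 7.58 ± 0.29 in undernourished standard, 8.16 ± 0.55 in control limited and 7.75 ± 0.37 in control standard cells (SD, n = 6 each). The Snord median lay above the Snora median on 24 of 24 arrays. Their gap averaged 1.04 ± 0.22 in undernourished limited, 0.71 ± 0.44 in undernourished standard, 1.13 ± 0.52 in control limited and 0.91 ± 0.32 in control standard cells. These gaps overlapped between all groups. Among the 5 Cajal body RNAs the median equalled Scarna10 in each group summary, with means of 8.54 ± 0.45, 8.23 ± 0.61, 9.24 ± 0.14 and 8.58 ± 0.52 in undernourished limited, undernourished standard, control limited and control standard cells.

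**Figure D1:**
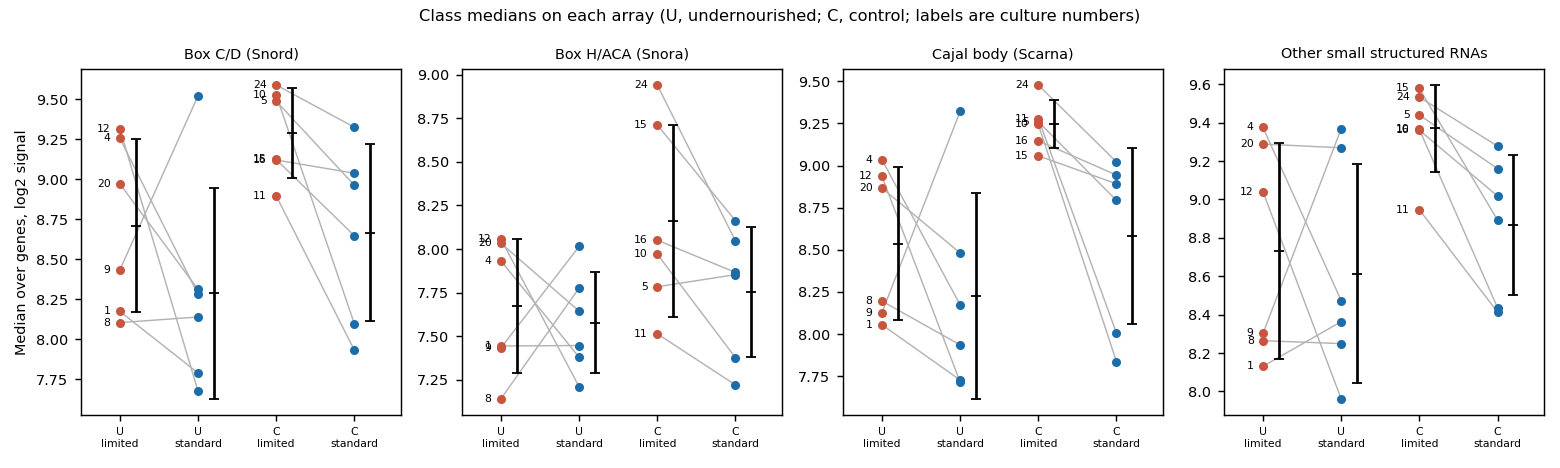
Each point is the median log2 signal of 1 array over the 47 Snord, 26 Snora, 5 Scarna or 10 other small structured RNAs, by maternal diet and medium, with grey lines joining arrays of a culture number and bars for mean ± SD (n = 6). The Snord median of undernourished culture 9 was 9.52 in standard medium, the highest of its group.

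In limited medium 73 of the 78 members had a higher fitted level than in standard medium over both maternal diets, against 51.8% of all genes, and 7 rose past an adjusted p of 0.05 in limma's moderated test (Benjamini-Hochberg over 22180 genes). Over all genes 6.84% passed in either direction and 3.56% as higher, and no member fell. The risers were Snord11, Snord17, Snord52 and Snord118 of box C/D, Snora7a and Snora78 of box H/ACA, and Scarna6. At an unadjusted p under 0.05, 43 members were higher (31 Snord, 9 Snora and 3 Scarna) and none lower, against 10.8% of all genes higher. The median difference on the log2 scale was 0.51 for Snord, 0.36 for Snora and 0.24 for Scarna, beside 0.01 for all genes. The difference between the classes was not tested.

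The count of called members turned on single cultures. The share of all genes that passed, 6.84% with every culture, moved as well and stands in brackets. Leaving out control culture 5 (4.47%), or undernourished culture 12 (4.61%), left 0 of 78. Leaving out control 10 (4.86%) or undernourished 4 (4.49%) left 1, and leaving out control 11 (5.09%) or undernourished 20 (7.23%) left 3. The count was 4 without undernourished culture 1 (5.1%) and 32 without undernourished culture 9 (7.12%), whose pair of arrays ran the other way. It was 3 without cultures 16 and 20 together (7.46%). At an unadjusted p under 0.05 the 43 became 40 without control culture 5, 22 without undernourished culture 12, 25 without control culture 10 and 26 without undernourished culture 4. The number of members with a higher fitted level lay between 72 and 75 whichever single culture was left out. Among markers of differentiated muscle 13 of 15 also had a higher fitted level in limited medium, against 51.8% of all genes, with a median of 0.07. Of the 15, 2 rose past the threshold, where 3.56% of all genes rose. These were the fast troponin gene Tnni2 (0.49 ± 0.11, adjusted p = 0.00963, limma) and the muscle creatine kinase gene Ckm (0.47 ± 0.12, adjusted p = 0.017). Their part in the result was not tested.

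**Figure D2:**
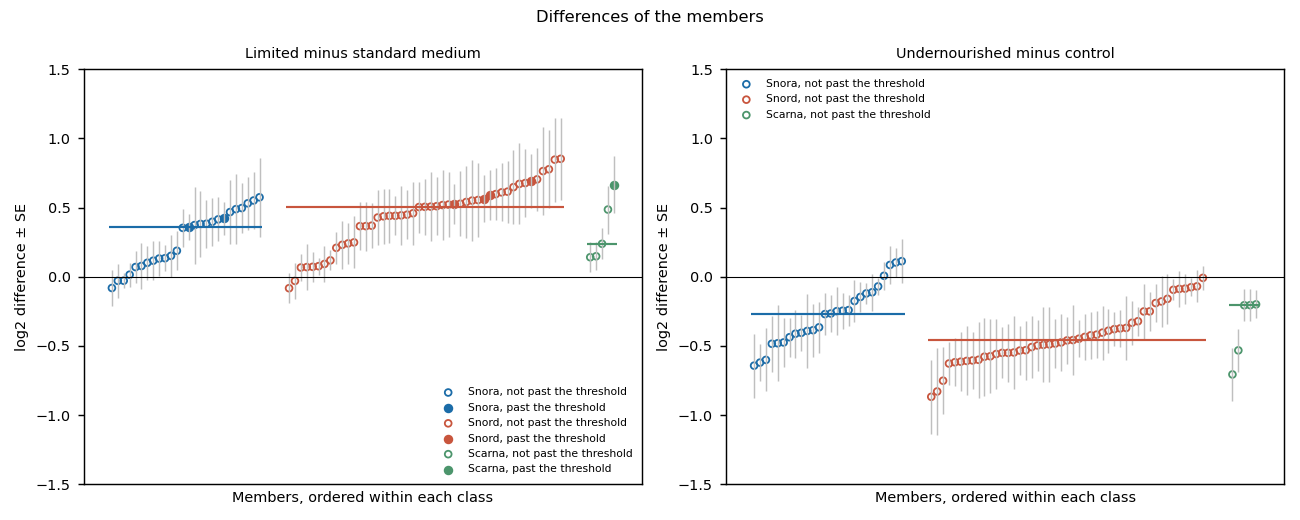
Each point is the fitted log2 difference of 1 of the 78 members with its standard error, limited minus standard medium (24 arrays) and undernourished minus control (12 culture averages), ordered within Snora, Snord and Scarna; horizontal lines are class medians and filled points passed an adjusted p of 0.05. The filled points are the 7 members that rose with the medium, and no point is filled for maternal diet.

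Snord118, also called U8, is needed for processing of large-subunit rRNA. Its log2 levels were 5.66, 6.42 and 7.11 in undernourished limited and 5.44, 5.95 and 6.71 in undernourished standard cells. In control cells they were 6.12, 6.64 and 7.28 in limited and 5.32, 6.03 and 6.28 in standard medium. Limited arrays sat higher in both diets, with overlap. The difference was 0.56 ± 0.17 on the log2 scale (SE, adjusted p = 0.0414, limma), higher in 11 of 12 cultures. It passed in 4 of the 12 fits that left out 1 culture, with adjusted p between 0.00885 and 0.103.

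The other measured RNAs of precursor cleavage were Snord13, Snord22, Snora73a and Snora73b. Of 11 entries on that list 5 were measured, all 5 were higher in limited medium and only Snord118 passed, with a list median of 0.51. Snord13, which takes part in maturation of the small subunit, had levels of 7.91, 8.88 and 10.15 in undernourished limited and 7.29, 8.15 and 9.54 in undernourished standard cells. In control cells they were 8.81, 9.49 and 10.56 in limited and 7.71, 8.82 and 9.63 in standard medium. Its difference of 0.78 ± 0.28 was larger than that of Snord118 but had a wider spread and an adjusted p of 0.103. Snord22, or U22, which also serves the small subunit, differed by 0.51 ± 0.21 (adjusted p = 0.162) with the same sign in 11 of 12 cultures. Snora73a and Snora73b, RNAs of the non-coding host Snhg3 that serve an early cleavage, differed by 0.38 ± 0.17 and 0.47 ± 0.23.

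Among guides of ribosomal RNA modification, Snord11 had the largest difference of the called members. Its log2 levels were 7.88, 8.39 and 9.20 in undernourished limited and 7.29, 7.67 and 9.04 in undernourished standard cells. They were 8.71, 9.06 and 9.29 in control limited and 7.49, 8.55 and 8.90 in control standard cells. Limited arrays were higher in 11 of 12 cultures, and the highest undernourished standard value again came from culture 9. The difference was 0.69 ± 0.19, or 1.62-fold (adjusted p = 0.029, limma), and passed in 6 of the 12 fits without 1 culture. Snord17 differed by 0.53 ± 0.14 (adjusted p = 0.0267), with levels of 8.10, 8.65 and 9.40 in undernourished limited against 7.69, 8.36 and 8.62 in undernourished standard cells, and of 8.79, 9.21 and 9.49 in control limited against 8.08, 8.77 and 8.98 in control standard cells. It was higher in 10 of 12 cultures and passed in 7 of the 12 fits. Snord52 differed by 0.59 ± 0.18 (adjusted p = 0.0493), was higher in 9 of 12 cultures and passed in 3 of the 12 fits. Its levels were 5.93, 6.52 and 7.38 in undernourished limited, 5.56, 5.87 and 7.08 in undernourished standard, 6.54, 6.95 and 7.41 in control limited and 5.84, 6.38 and 7.01 in control standard cells. The groups overlapped for each of these RNAs.

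Both called box H/ACA RNAs had smaller differences with less spread. Snora78 had log2 levels of 6.55, 6.94 and 7.42 in undernourished limited and 6.17, 6.52 and 6.62 in undernourished standard cells, where 5 of 6 limited arrays lay above every standard array. In control cells the levels were 6.58, 6.78 and 7.10 in limited and 6.27, 6.65 and 6.97 in standard medium. The difference was 0.36 ± 0.09 (adjusted p = 0.0187, limma), the lowest adjusted p of the 78, and it passed in 10 of the 12 fits without 1 culture. Snora7a, held by the ribosomal protein gene Rpl32, had levels of 6.79, 7.20 and 7.62 in undernourished limited and 6.51, 7.03 and 7.17 in undernourished standard cells. In control cells they were 7.33, 7.45 and 8.18 in limited and 6.60, 7.02 and 7.48 in standard medium. The difference was 0.42 ± 0.12 (adjusted p = 0.0321), higher in 10 of 12 cultures, and passed in 7 of the 12 fits.

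Of the 5 Cajal body RNAs all had a higher fitted level in limited medium and Scarna6 passed. Its levels were 6.85, 7.62 and 8.37 in undernourished limited, 6.59, 6.98 and 8.31 in undernourished standard, 8.28, 8.54 and 8.93 in control limited and 6.80, 7.60 and 8.39 in control standard cells. The difference was 0.67 ± 0.21 (adjusted p = 0.0499, limma), at the edge of the threshold, higher in 11 of 12 cultures, and it passed in 2 of the 12 fits without 1 culture. Scarna10, which carries both box types, differed by 0.49 ± 0.17 (adjusted p = 0.0964). Its control limited arrays, from 9.06 to 9.48, lay above all control standard arrays, from 7.84 to 9.02. Its undernourished limited arrays, from 8.06 to 9.03, in turn lay below all control limited arrays. It was the only member without overlap in either comparison, where 1.19% and 0.207% of all genes had none. Scarna2 (0.24 ± 0.11), Scarna17 (0.15 ± 0.10) and the dim Scarna8 (0.14 ± 0.11) were higher by less.

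**Figure D3:**
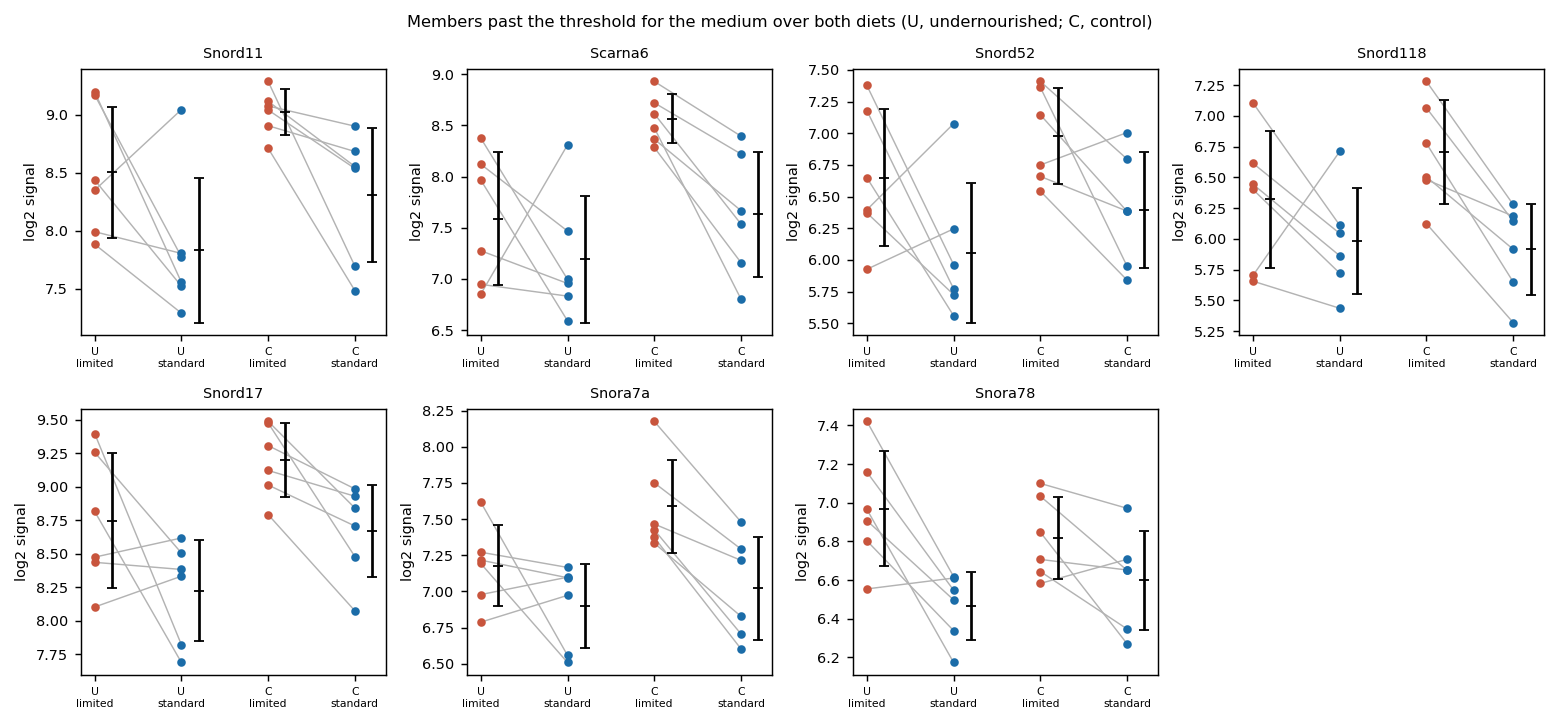
Points are the log2 signals of the 7 members past the threshold for the medium effect on each array, by maternal diet and medium, with grey lines joining arrays of a culture number and bars for mean ± SD (n = 6). Limited arrays sit higher on average in every panel, and the groups overlap.

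Larger differences than those called came with larger spread. Snord111 and Snord61 both differed by 0.85 ± 0.30, with adjusted p of 0.0848 and 0.0985. Snord111, within the splicing factor gene Sf3b3, had levels of 7.24, 7.98 and 8.96 in undernourished limited and 6.07, 7.08 and 9.27 in undernourished standard cells. In control cells they were 8.27, 9.09 and 9.33 in limited and 7.12, 8.15 and 9.05 in standard medium. Its range over the 12 culture means was among the 5 widest of the set, with Snord1b, Snord72, Snord58b and Snord47. Snord1b differed by 0.76 ± 0.32 (adjusted p = 0.161) and Snord110, held by Nop56, by 0.70 ± 0.23 (adjusted p = 0.0617).

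The 5 members that were not higher were Snora19, Snora20, Snora47, Snord53 and Snord88c, with differences from -0.08 to -0.03. Snora19 and Snora20 lay below the gene median. By level, the 10 members below that median differed by a median of 0.07, the 25 members from there to a level of 8 by 0.37, the 27 from 8 to 10 by 0.51 and the 16 at 10 and above by 0.51. At 10 and above the 12 Snord differed by a median of 0.52 and the 4 Snora by 0.27. From 8 to 10 the medians were nearer, at 0.55 for 19 Snord and 0.50 for 5 Snora. The class medians therefore mix level with class, since 17 of 26 Snora but 16 of 47 Snord were under a level of 8.

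Within undernourished offspring no member passed for the medium, with 7 higher and none lower at an unadjusted p under 0.05 (6.71% of all genes were higher at that level), while 1.46% of all genes passed. There 71 of 78 were higher, against 51.1% of all genes, with medians of 0.35 for Snord and 0.17 for Snora. These values turned on single cultures: the 7 became 1 without undernourished culture 12 and 38 without undernourished culture 9, and the Snord median became 0.10 without culture 12 and 0.63 without culture 9. The Snora median became 0.05 without undernourished culture 4 and 0.35 without culture 9. The smallest p values among those higher belonged to Snora78 (0.50, adjusted p = 0.054), Snord83b (0.73) and Snord17 (0.52). Snord88c (-0.08), Snora44 (-0.05) and Snord88a (-0.03) were the lowest in p on the other side, and each took the opposite sign without some single culture. Within control offspring none passed without a block, with 33 higher and none lower at an unadjusted p under 0.05 (7.28% of all genes were higher at that level), while 0.343% of all genes passed. There 73 of 78 were higher, against 51.7% of all genes, with medians of 0.58 for Snord and 0.24 for Snora, led in p by Snora7a (0.57, adjusted p = 0.135), Snord118 (0.79) and Scarna6 (0.93). The 33 became 4 without control culture 10. In control offspring every pair of same-numbered arrays deviated together, and with the culture number as a block Snora7a (adjusted p = 0.0364) and Snord118 (adjusted p = 0.0334) passed, 2 of 78, where 2.48% of all genes did. The smallest p values on the lower side were those of Snora47 (-0.10), Snord53 (-0.16) and Snora20 (-0.13).

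The medium effect did not pass a test of difference between the diets for any member, and no member reached an unadjusted p under 0.05 (limma, lowest adjusted p 1.00; 0% of all genes passed and 2.90% reached the unadjusted level). The fitted difference, undernourished minus control, was below 0 for 57 members and 52.6% of all genes, with medians of -0.19 for Snord and -0.10 for Snora. The Snord median was 0.04 without undernourished culture 9 and -0.38 without undernourished culture 12. The Snora median ran from -0.22 without undernourished culture 12 to -0.01 without control culture 24, and 43 of 78 members were above 0 without undernourished culture 9. The largest was that of Snora15 at -0.84 (-0.29 without undernourished culture 9 and -1.22 without undernourished culture 12), whose medium differences were 0.15 in undernourished and 0.99 in control cells. Snora78 ran the other way, with 0.50 in undernourished and 0.22 in control cells.

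The cultures themselves differed in size and direction. The median limited minus standard difference of Snord was above 0 in 10 of 12 cultures, 4 of 6 undernourished and 6 of 6 control, and the same counts held for Snora and for Scarna. Undernourished culture 12 had the largest Snord median, 1.57, with 0.71 for Snora and 72 of 78 members higher. Control culture 10 followed with 1.23 for Snord and 0.58 for Snora, and all 78 members were higher there. Undernourished culture 4 had 0.92 for Snord and 0.64 for Snora, and control culture 11 had 0.88 for Snord and 0.20 for Snora. Undernourished culture 1 (0.51 and 0.11), control culture 15 (0.48 and 0.23), undernourished culture 20 (0.38 and 0.32) and control culture 5 (0.34 and 0.07) gave smaller Snord and Snora medians. In control culture 24 the Snora median of 0.65 exceeded the Snord median of 0.33, and in control culture 16 both were small, at 0.10 and 0.02.

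A pair of undernourished cultures ran against the rest. In culture 8 the Snord median was -0.15 and the Snora median -0.20, with 13 of 78 members higher in limited medium. In culture 9 the Snord median was -0.94 and the Snora median -0.40, with 11 of 78 higher. The thioredoxin-interacting protein gene Txnip, which follows glucose supply, had less signal under limited conditions in 12 of 12 cultures, and in culture 9 it read 6.00 in limited against 9.06 in standard medium, the direction of all other cultures. Txnip bears on the medium label alone. Over all genes, the undernourished standard array of culture 9 correlated most with the control standard array of culture 24 (0.993). That of undernourished culture 12 correlated most with the control standard array of culture 11 (0.995). Such closeness was common. Only in control culture 16 (0.990) and undernourished culture 8 (0.993) was each array closest to the other array of its number. In every other number at least 1 array was closest to an array of another number. The identity of the arrays was not tested. The Snord difference was larger in size than the Snora difference in 9 of 12 cultures. No member was higher in limited medium in all 12 cultures, where 1.36% of all genes were, and 30 were higher in at least 10, where 9.82% of all genes were (21 Snord, 7 Snora and 2 Scarna).

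**Figure D4:**
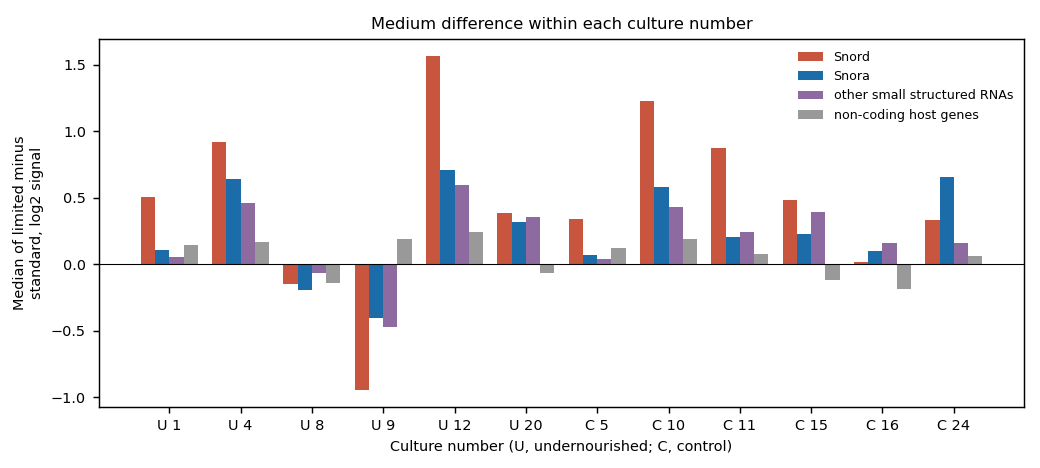
Bars give, for each culture number (U, undernourished; C, control), the median limited minus standard difference in log2 signal over 47 Snord, 26 Snora, 10 other small structured RNAs and 18 non-coding host genes. Snord, Snora and the other small RNAs are below 0 in undernourished cultures 8 and 9 only.

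Most short structured RNAs with other functions had fitted medium differences of the same sign as most snoRNAs. Of 19 listed, 10 were measured, among them the RNase P RNA Rpph1, the transcription regulator Rn7sk, the telomerase RNA Terc, the vault RNA Vaultrc5 and the Y RNAs Rny1 and Rny3. In limited medium 9 of the 10 had a higher fitted level, against 51.8% of all genes, with a median of 0.21. Of the 10, 1 passed, against 6.84% of all genes (Vaultrc5, 0.51 ± 0.16, adjusted p = 0.0482, limma), although it is dim, with group means from 4.77 to 5.43. Rpph1 differed by 0.38 ± 0.14 (adjusted p = 0.12) and Rny3 by 0.44 ± 0.30 (adjusted p = 0.433). The median over the 10 averaged 8.73 ± 0.56 in undernourished limited, 8.61 ± 0.57 in undernourished standard, 9.37 ± 0.23 in control limited and 8.87 ± 0.37 in control standard cells. In 12 of 12 cultures the median difference of these RNAs had the sign of the Snord median, culture 8 (-0.06) and culture 9 (-0.47) included. The part of whatever these RNAs share with snoRNAs in preparation and labelling was not tested. Medians over 478 miRNA genes were 4.58, 4.62, 4.58 and 4.70 in undernourished limited, undernourished standard, control limited and control standard cells, and their difference was above 0 in 2 of 12 cultures.

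For maternal diet, 74 of the 78 members had a lower fitted level in undernourished than in control offspring over both media, against 47.0% of all genes. None passed the adjusted threshold, nor did any of the 22180 genes (0% called; 12 culture averages, limma, lowest adjusted p of the members 0.999). At an unadjusted p under 0.05, 39 members were lower (28 Snord, 9 Snora and 2 Scarna) and none higher, against 1.74% of all genes lower. That count ran from 26 to 55 when each culture was left out in turn. Medians were -0.46 for Snord, -0.27 for Snora and -0.21 for Scarna, beside 0.01 for all genes. All 47 Snord and all 5 Scarna were lower, and the 4 members that were not were Snora2b (0.11), Snora35 (0.10), Snora19 (0.09) and Snora78 (0.01), of which Snora19 turned to -0.01 without undernourished culture 1. Fibroblast markers had differences of the same sign without passing: all 7 measured of 8 had a lower fitted level in undernourished offspring over both media, with a median of -0.21 (from -0.50 to -0.04), and in limited medium alone, with a median of -0.46. Their median level ran from 5.14 to 7.53 in undernourished limited against 5.35 to 9.07 in control limited arrays, and from 5.10 to 5.91 in undernourished standard against 5.20 to 7.33 in control standard arrays. None of the 7 reached an unadjusted p under 0.05 over both media, and their part in the result was not tested. Without control culture 16, where these markers were highest, and undernourished culture 20 together, 74 members were still lower and 36 in place of 39 were at an unadjusted p under 0.05.

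The members with the smallest unadjusted p were Snora34, Snord73a and Scarna6. Snora34, held by Kansl2, had levels of 9.89, 10.97 and 11.57 in undernourished limited against 11.43, 11.63 and 11.98 in control limited cells, and of 10.20, 10.57 and 11.53 in undernourished standard against 10.48, 11.19 and 11.53 in control standard cells. Undernourished arrays sat lower on average and overlapped the control arrays in each medium. Its difference was -0.62 ± 0.14 (unadjusted p = 0.00045, adjusted p = 0.999). Snord73a, held by the ribosomal protein gene Rps3a1, had levels of 6.97, 7.45 and 8.34 in undernourished limited against 7.93, 8.37 and 8.85 in control limited cells, and of 6.84, 7.30 and 8.31 in undernourished standard against 7.05, 7.97 and 8.37 in control standard cells. Its difference was -0.63 ± 0.15 (unadjusted p = 0.00111). That of Scarna6 was -0.71 ± 0.19 (unadjusted p = 0.00222). The largest difference was that of Snord111, -0.87 ± 0.27, followed by Snord1b at -0.83 ± 0.32.

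In limited medium alone 71 members, and 49.1% of all genes, were lower in undernourished offspring, with medians of -0.56 for Snord and -0.40 for Snora. None passed (0% of all genes), and 29 were lower at an unadjusted p under 0.05, where 2.66% of all genes were. The 29 became 9 without undernourished culture 8 and 43 without control culture 11. Snora34 (-0.83), Scarna6 (-0.97) and Snora61 (-0.55) had the smallest p values. On the higher side these were Snora78 (0.15), Snora2b (0.23) and Snora35 (0.12). In standard medium 73 members, and 46.8% of all genes, were lower, with medians of -0.35 for Snord and -0.22 for Snora, none passed (0% of all genes), and 3 were lower at an unadjusted p under 0.05, where 1.37% of all genes were. Without undernourished culture 9 the 3 became 29 and the Snord median -0.57. The Snord median was -0.22 and the Snora median -0.14 without undernourished culture 12, and 0 members were lower at that level without control culture 5. Those 3 were Snord69 (-0.62), Snord17 (-0.44) and Snord83b (-0.57). Snora35 (0.09), Snord88a (0.05) and Snord118 (0.07) had the smallest p values on the higher side there, and Snord118 turned below 0 without control culture 11 and without undernourished culture 9.

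Over the 12 culture means, undernourished culture 1 was the lowest for 37 members and undernourished culture 8 for 14. Control culture 24 was the highest for 44 members and control culture 15 for 14. Members below the gene median differed by diet by a median of -0.12, those from there to 8 by -0.27, those from 8 to 10 by -0.49 and those at 10 and above by -0.48. At 10 and above the 12 Snord had a median of -0.52 and the 4 Snora one of -0.26, as with the medium. The 10 other small structured RNAs were all lower in undernourished offspring as well, against 47.0% of all genes, with a median of -0.23. None passed the threshold, and 6 were at an unadjusted p under 0.05, where 1.74% of all genes were lower at that level. Among them Rprl2 (-0.38) and Rpph1 (-0.46) had the smallest p values. The medium and diet comparisons use the same 24 arrays.

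The host genes had smaller fitted differences than the RNAs inside them. By the spans of a RefSeq gene table that gives no strand, 74 of 78 members lay inside at least 1 other gene, and 58 lay inside exactly 1 that was measured. Those 58 fell in 44 hosts, 37 protein-coding and 7 non-coding. The median medium difference was 0.43 for the 58 members and 0.09 for the hosts, with 0.21 for non-coding and 0.07 for protein-coding hosts, and 48 of 58 members differed by more than their host. For maternal diet the medians were -0.43 for the members and 0.04 for the hosts, and 55 of 58 members lay below their host. Hosts and members are read by different probes, so these differences are side by side without a test.

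**Figure D5:**
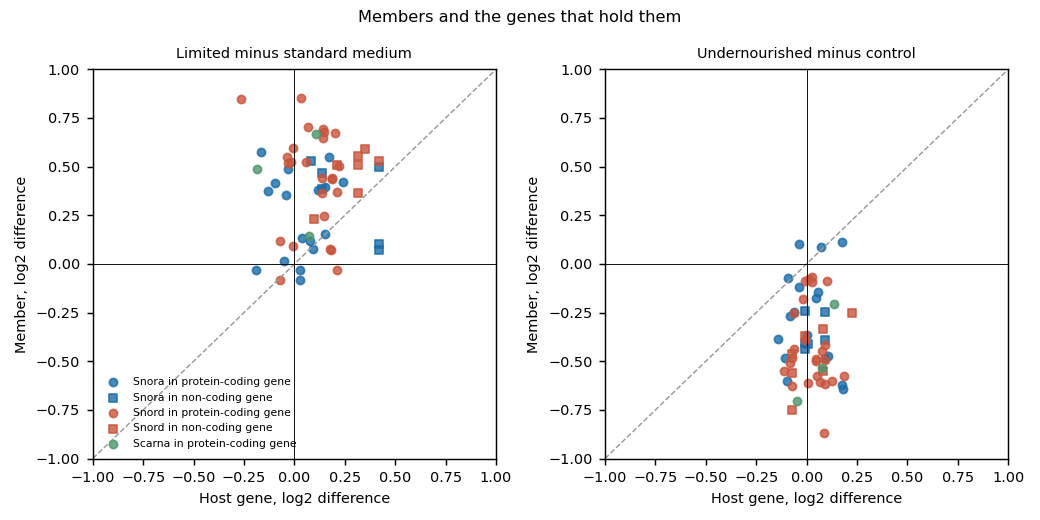
Each point is 1 of 58 members with a single measured host: the x axis is the fitted log2 difference of the host and the y axis that of the member, for limited minus standard medium and for undernourished minus control, with a dashed line of equality. Host differences lie between -0.27 and 0.42 for the medium, and 48 of 58 points lie above the line there.

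Single hosts, among them genes of core box C/D proteins, made this visible. Nop58, a core box C/D protein, differed by 0.14 ± 0.10 with the medium, while Snord11 and Snord70 inside it differed by 0.69 and 0.65. Nop56, another core box C/D protein, differed by 0.07 ± 0.08 and Snord110 inside it by 0.70. The nucleolin gene Ncl differed by -0.03 ± 0.08, against 0.49 for Snora75 and 0.52 for Snord82. Rbmx, an RNA-binding protein gene, differed by -0.27 ± 0.11 (adjusted p = 0.146) and Snord61 inside it by 0.85. The non-coding host Snhg12 had the highest host difference, 0.42 ± 0.15 (adjusted p = 0.0971), close to Snora16a (0.50) and Snord99 (0.53) and above Snora44 (0.07) and Snora61 (0.10). Members of 1 host could thus lie apart from each other.

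Of the 44 hosts, 2 rose past the threshold, where 3.56% of all genes rose. The non-coding 1110038B12Rik rose by 0.35 ± 0.10 (adjusted p = 0.0365, limma), higher in 11 of 12 cultures, with Snord52 inside it. The elongation factor gene Eef2 rose by 0.15 ± 0.04 (adjusted p = 0.0469), higher in 12 of 12 cultures, while Snord37 inside it differed by 0.25 ± 0.19 without passing. Chd8, a chromatin remodeller that holds Snord8 together with another gene, fell by 0.26 on the log2 scale (SE 0.06, adjusted p = 0.0115), while Snord8 differed by 0.21 ± 0.12. Transcripts of many snoRNA hosts and translation genes begin in a run of pyrimidines, so the start regions of both risen hosts are shown from RefSeq (GRCm38.p6), 250 bases before to 50 after the start, with capitals for the letters CTTT where they occur from 5 bases before to 10 after the start. The letters were searched on the transcribed strand alone and were chosen with these data known. 1110038B12Rik lies at chr17:34952422-34952721 on the minus strand and Eef2 at chr10:81176381-81176680 on the plus strand.
1110038B12Rik: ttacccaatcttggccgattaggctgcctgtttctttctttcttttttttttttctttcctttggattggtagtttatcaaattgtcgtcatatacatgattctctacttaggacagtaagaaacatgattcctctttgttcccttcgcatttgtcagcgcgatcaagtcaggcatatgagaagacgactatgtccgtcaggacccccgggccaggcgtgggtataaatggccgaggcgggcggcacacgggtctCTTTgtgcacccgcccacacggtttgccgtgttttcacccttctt
Eef2: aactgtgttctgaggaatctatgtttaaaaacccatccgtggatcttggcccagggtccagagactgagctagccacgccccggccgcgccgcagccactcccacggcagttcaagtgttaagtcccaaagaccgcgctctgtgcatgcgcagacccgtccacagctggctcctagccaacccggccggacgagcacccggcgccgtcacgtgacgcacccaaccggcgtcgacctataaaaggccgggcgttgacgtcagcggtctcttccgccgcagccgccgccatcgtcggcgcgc
The letters occurred in that window in the first sequence and not in the second, where a run of pyrimidines lies after the window. Lack of the letters therefore does not show that a transcript lacks such a run near its start. The letters occurred in 7 (13.0%) of the 54 promoters of genes that hold a member and in 5.61% of the 32851 promoters in the table. The 54 promoters belong to 50 genes, and 1110038B12Rik entered with 2 overlapping start regions that both hold the letters. That difference was not tested.

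Genes of snoRNA biology were followed by lists, to be read beside the 3.56% of all genes that rose with the medium and the 6.84% that passed in either direction. The core proteins of box C/D particles (3 of 4 measured: Nop56, Nop58 and Snu13) had a median medium difference of 0.11 and none passed, and those of box H/ACA particles (4 of 4: Dkc1, Nhp2, Nop10 and Gar1) had a median of 0.01 and none passed. None of them reached an unadjusted p under 0.05 either. Of 12 assembly factors 3 rose: Tcof1, which serves rRNA transcription and modification (0.33 ± 0.08, adjusted p = 0.0126), the R2TP complex member Pih1d1 (0.25 ± 0.07, adjusted p = 0.024) and its ATPase Ruvbl2 (0.22 ± 0.07, adjusted p = 0.0397). The list median was 0.04. Of 10 Cajal body and U3 particle proteins 3 rose, all in the U3 particle: Imp3 (0.42 ± 0.10, adjusted p = 0.0116), Rrp9 (0.24 ± 0.06, adjusted p = 0.018) and Imp4 (0.21 ± 0.06, adjusted p = 0.0464), with a list median of 0.08. The Cajal body scaffold Coil differed by 0.02 ± 0.08.

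Of 8 measured genes of small RNA trimming and capping, the oligoadenylating polymerase Tent4b rose (0.25 ± 0.07, adjusted p = 0.0372) and the decapping enzyme Dcp2 fell by 0.23 (SE 0.06, adjusted p = 0.024). The ribonuclease Parn, which trims tails of H/ACA RNAs in human cells, differed by -0.24 ± 0.08 (adjusted p = 0.0746), and the list median was -0.08. None of 18 measured non-coding host genes passed, with a median of 0.05 and 1, Snhg12, at an unadjusted p under 0.05. For maternal diet no gene on these lists of proteins and host genes passed in limma's test. Among them the non-coding host Zfas1 (-0.47) alone reached an unadjusted p under 0.05. The lists of box C/D RNAs hosted by Rpl13a, Gas5 and Snhg1 had 1 measured member each. Snord35a of the Rpl13a cluster, whose RNAs are known from lipid stress, differed by 0.61 ± 0.21 with the medium (adjusted p = 0.0802) and by -0.47 ± 0.21 with maternal diet. Snord22 of Snhg1, given above for the medium, differed by -0.55 with diet. Snord47 of Gas5 differed by 0.54 ± 0.26 with the medium and -0.55 ± 0.26 with diet. For diet Snord35a (0.0372) and Snord22 (0.0207) had an unadjusted p under 0.05 in limma's test, and Snord47 (0.0573) did not.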

How the data were processed

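RNA of primary muscle cells was measured on 24 single-colour arrays, 1 per sample. The deposited table holds log2 signal values that the authors made with RMA in Affymetrix Expression Console, per the submitters' processing notes. The log base, tool versions and build of the clusters are not stated in the labels or file headers. RMA normalizes arrays by quantiles, so levels are relative to all other probes of an array. They span 1.69 to 14.1, and array medians lie between 5.60 and 5.81.

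Clusters were named through the platform annotation with symbols updated by RefSeq identifier (23328 of 23521 clusters with exactly 1 symbol had their gene; 1814 had several symbols and 16010 are unnamed here). The cluster with the highest mean was used per gene, without a filter on dim genes, which left 22180 genes. limma 3.58.1 in R 4.3.3 (lmFit and eBayes, two-sided, Benjamini-Hochberg over all genes, threshold 0.05) was fitted to 24 arrays in 4 groups. For maternal diet over both media, both arrays of a culture number were averaged first. Errors of differences are SE, those of levels SD. The procedure was tested on simulated data.

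The members, lists and tests were chosen with earlier results of these data known. Named were called members (up to 8 each way), the 3 smallest p each way where fewer than 5 were called, the 5 widest over cultures, the brightest and dimmest, all Scarna and list members; hosts and further large differences were picked after their values were seen. Hosts were taken by gene span without strand, since the table used gives none. Same-numbered arrays deviated together in all 6 control cultures (correlations of deviations from the group mean, 0.19 to 0.46). They also did so in 4 of 6 undernourished ones (0.28 to 0.56), but not in undernourished 9 (-0.05) and 12 (0.018). By the data the numbers thus pair arrays in control offspring but not in every undernourished culture. The main fit for the medium used no pairing, and fits with the culture number as a block are given as alternatives. Alternatives covered blocks, normalization, cluster choice, weights, covariates and leaving out cultures. Precision is limited by the number of arrays, and detection calls were not part of the procedure.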

Additional observations from a re-analysis of the deposited data

Results flagged for a closer look

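Within groups of 6 arrays, the gap between an extreme array and its neighbour was compared with the group's whole range by Dixon's 95% limit. Of 188 groups examined 7 had an array beyond it, no more than the about 1 in 20 that chance gives. The groups are not independent, since they share arrays and single members also enter the class medians. In undernourished standard cells culture 9 was the highest array by that measure for the Snord median (9.52, next 8.31), Snora34 (11.53, next 10.65), Snord11 (9.04, next 7.81), Snord111 (9.27, next 7.13) and Snord73a (8.31, next 7.38). In control limited cells culture 15 was the lowest for Scarna17 (9.32, next 9.81), and in control standard cells culture 15 was the highest for the dim Snora20 (6.30, next 5.63). Without undernourished culture 9, 32 members in place of 7 passed for the medium over both diets (7.12% of all genes in place of 6.84%). The Snord median difference was then 0.62 in place of 0.51.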

How the results depend on the processing

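The 7 of 78 members past the threshold for the medium over both diets stood beside 6.84% of all genes. The count became 14 with the culture number as a replicate block (11.7% of all genes) and 13 with it as a random block (10.9%). It was 23 with array weights (9.46%), 4 with a trended robust prior (6.61%) and 11 with the titles' other number as a covariate (7.07%). It was 3 without cultures 16 and 20 (7.46%), 16 at an adjusted p under 0.1, and from 0 to 32 without 1 culture. It was 6 under quantile normalization (7.06%), 8 under median centring (6.41%), 5 with the dimmer cluster (6.49%) and 6 with mean clusters (6.72%). With dim genes left out it was 10 of 68, where 16.2% of the genes kept passed. The replicate block and the random block kept all 7. Neither block changed a call on the difference of the medium effect. For maternal diet the replicate block could not be fitted, as no number occurs in both diets. Under the random block 0 members passed for diet in limited or in standard medium (0% of all genes). There 28 and 3 members were lower at an unadjusted p under 0.05. In undernourished offspring 1 member in place of 0 passed under the replicate block (4.54% of all genes), the random block (3.71%), quantile normalization (1.53%) and array weights (2.57%). With dim genes (below the median level) left out it was 1 of 68, where 4.25% of the genes kept passed. At an adjusted p under 0.1 it was also 1, and without 1 culture 0 to 1. In control offspring 2 passed under the replicate block (2.48% of all genes) and under the random block (2%). The maternal diet and difference-of-effect counts remained 0. Class medians under every alternative moved by less than the SD between cultures. Leaving out 1 culture can hardly move a median by that much, so this does not show that the medians were stable. For the medium over both diets the Snord median ran from 0.36 to 0.62 without 1 culture, and in undernourished offspring from 0.10 to 0.63.

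A sign turned in small, uncalled differences, and in the Snord median of the difference of the medium effect between diets, which ran from -0.38 to 0.04 without 1 culture (-0.19 with all). For the medium in undernourished offspring, Snord88c ran from -0.18 to 0.026 without 1 culture, 0.026 being the value without undernourished 20 and without cultures 16 and 20. Snora44 ran from -0.17 to 0.089, with 0.089 without undernourished 9 and 0.035 without 8. Snord88a ran from -0.13 to 0.053, with 0.019 under array weights, 0.017 without undernourished 20 and without cultures 16 and 20, and 0.053 without 1. In standard medium, Snord118 differed by diet by -0.081 to 0.17, with -0.081 without undernourished 9 and -0.054 without control 11. Snora19 differed by diet over both media by -0.011 to 0.18, with -0.011 without undernourished 1.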

Other observations

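Clusters of these families outside the set were also measured. Of the 46 clusters with several symbols, 1 of them of the 3 families, 41 were higher in limited medium, with a median of 0.44 (from -0.34 to 1.02), and 40 were lower in undernourished offspring, with a median of -0.17. These clusters held 31 family symbols, so some symbols were counted more than once. Of all genes tested 51.8% were higher in limited medium and 47.0% were lower in undernourished offspring. The 8 snoRNA genes of the RefSeq table with other names were mostly dim. Of these 5 were higher in limited medium, with a median of 0.06, and all 8 were lower in undernourished offspring, with a median of -0.28. The largest medium difference among the 8 was that of Gm26504 (1.01, higher in 11 of 12 cultures), and the largest diet difference that of AF357355 (-0.82). They were described without a test, as their names fall outside the rule.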
